A study of Rattus norvegicus with 96 samples.

Results

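Mtarc2, Eri2, Wdr37, Nepn, E4f1 and Pnpla1 are 6 genes that ranked near the top for a difference between rat lines bred for high and for low alcohol preference, Mtarc2 and Eri2 in the P and NP lines, Wdr37 and Nepn in AA and ANA, and E4f1 and Pnpla1 in sP and sNP. They were taken because their p was small in 1 of these 3 line pairs, so the differences there chose the genes and are given as a description without a test. All probe sets annotated to 1 of these symbols alone were used, 8 of 31042 probe sets, for 6 of 14217 genes. Eri2 and Wdr37 had 2 probe sets each and the other genes had 1. No cut-off for a small p was stated. Within the picking pair, Mtarc2 ranked 1 and Eri2 ranked 5 by p, Wdr37 ranked 10 and Nepn 16, and E4f1 ranked 1 and Pnpla1 10.

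RNA came from the central nucleus of the amygdala, a forebrain nucleus that takes part in responses to threat, stress and alcohol. The preferring lines were HAD1 (9 arrays), HAD2 (10), P (10), AA (10) and sP (8), set against LAD1 (10), LAD2 (10), NP (10), ANA (10) and sNP (9), with 1 animal per array according to the titles. Each preferring line was bred for high and its partner for low alcohol consumption, so a line is 1 breeding population and its animals share descent. No treatment, age or sex is stated in the labels used here, and all arrays had the same 25 ng of input RNA. Values are log2 signals, and every difference is the preferring line minus its partner on that scale, with the standard error (SE) of the fit of that pair. Because the tissue holds many cell types, fewer cells of a type and less RNA per cell cannot be told apart.

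The 6 genes belong to unrelated pathways. Mtarc2 encodes a molybdenum enzyme of the outer mitochondrial membrane that reduces N-hydroxylated compounds with electrons passed on by cytochrome b5, and Mtarc1 is its paralogue. Eri2 encodes a member of the ERI family of 3′-5′ exonucleases, which trim RNA ends. Wdr37 encodes a WD-repeat protein that binds the trafficking proteins PACS1 and PACS2 in human and mouse cells. Nepn encodes nephrocan, a small leucine-rich proteoglycan described in the mouse as an inhibitor of TGF-beta signalling. E4f1 encodes a zinc finger transcription factor that in the mouse controls pyruvate dehydrogenase genes and also acts on p53. Pnpla1 encodes a patatin-like lipase relative that in human and mouse skin makes acylceramides of the water barrier.

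Some arrays did not resemble the line on their label, which bears on nearly every value below. Each array was placed between both lines of its pair on the 100 probe sets that best separated the other arrays, with +1 at the preferring line's median and -1 at the partner's, separately for odd and even chromosomes and without the 8 probe sets described here. On both scores, 15 of 96 arrays lay on the other line's side: HAD1 28, LAD1 37, P 1, P 9, NP 1, NP 9, AA 15, AA 17, AA 19, ANA 16, ANA 18, sP 2, sP 9, sNP 8 and sNP 9. They are called misfit arrays here. Leaving them out tends to raise a difference and to part the lines by construction, since they were set apart for resembling the other line. Values without misfit arrays are therefore a description and are not read as stronger effects. A like score between line pairs, with +1 for the array's own pair, put the arrays labelled AA 19, ANA 18 and ANA 20 close to -1, between -1.01 and -1.0, which is the position of the sP and sNP arrays, while each of the other 93 arrays scored at least 0.816. The arrays sP 2 and sNP 2 were nearly identical, with an SD of 0.0901 over all probe sets for the difference between both, against 0.165 for the next closest arrays of that pair. LAD1 36 is labelled LAD1 in its title and HAD1 in its source name and was kept as LAD1. The log2 ratio of GAPDH 3′ to 5′ probe sets, a sign of RNA quality, averaged 3.84 in HAD1, 4.09 in LAD1, 3.43 in HAD2 and 3.33 in LAD2, against 0.20 to 0.43 in the other 6 lines, so differences were taken within pairs, and a level set across pairs is a description.

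**Figure D1:**
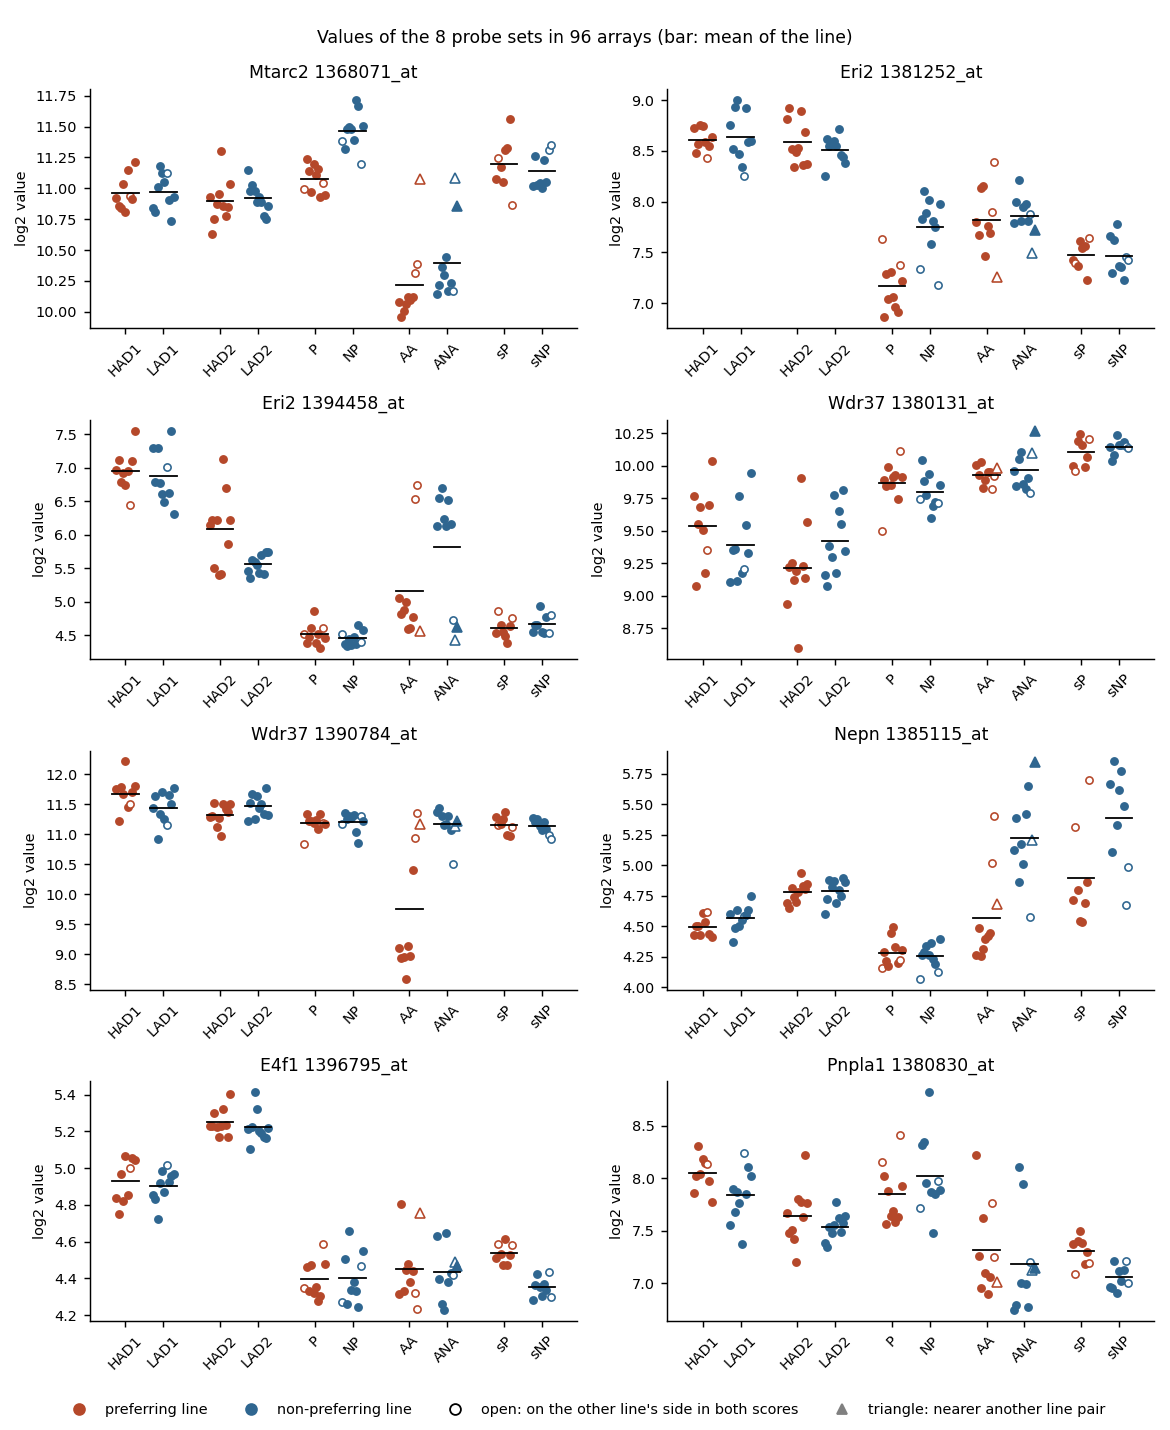
Log2 value of each of the 8 probe sets (1 panel each, with its own vertical axis) in every array, grouped by line with the preferring line left of its partner. Bars are line means, open symbols are the 15 misfit arrays and triangles are the 3 arrays nearer another line pair. Wdr37 1390784_at lies between 8.59 and 9.14 in 6 AA arrays and at 10.40 or above in all others, and the values of Eri2 1394458_at in AA and ANA form a low and a high set.

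Mtarc2 was lower in P than in NP rats. Its probe set 1368071_at had a lowest value of 10.93, a median of 11.07 and a highest of 11.24 in P, against 11.20, 11.48 and 11.72 in NP. Only NP 9, at 11.20, fell within the range of P, and without the 4 misfit arrays of this pair the lines did not overlap. The difference was -0.39 (SE 0.06). Without the misfit arrays it was -0.42 (SE 0.06). Of the misfit arrays, 1 of the 4, NP 9, lay beyond the midpoint of the line medians. P 1 and P 9 lay among the other P arrays (P 9 at 11.04), and NP 1, at 11.39, lay with NP. Because Mtarc2 was picked by its p in this pair as labelled, values that follow the labels are favoured by that choice. Nothing is read from them.

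In the AA and ANA lines 3 arrays lay apart in Mtarc2. The arrays labelled AA 19, ANA 18 and ANA 20 had 11.07, 11.08 and 10.86, while the other AA arrays ran from 9.96 to 10.38 and the other ANA arrays from 10.14 to 10.44. The 3 high arrays are the ones that score nearer sP and sNP, and their values lie at the lower end of the 10.86 to 11.56 seen over the sP and sNP arrays. The AA minus ANA difference was -0.18 (SE 0.13) as labelled and -0.13 (SE 0.06) without these 3 arrays. Without the misfit arrays it was -0.28 (SE 0.09), and AA, at 9.96 to 10.12, did not overlap with ANA, at 10.14 to 10.86. Leaving out both kinds of array gave -0.20 (SE 0.06). In sP and sNP the Mtarc2 difference was 0.06 (SE 0.08).

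Eri2 was also lower in P than in NP, on 1 of its 2 probe sets. Probe set 1381252_at had a lowest value of 6.86, a median of 7.14 and a highest of 7.63 in P, against 7.17, 7.82 and 8.10 in NP. The lines overlapped through 3 misfit arrays: P 1 was the highest P array at 7.63, and NP 9 and NP 1 were the lowest NP arrays at 7.17 and 7.34. The difference was -0.58 (SE 0.12), and it was -0.79 (SE 0.09) without the misfit arrays, where the lines did not overlap. The other Eri2 probe set, 1394458_at, ran from 4.31 to 4.86 in P and from 4.33 to 4.66 in NP, with a difference of 0.06 (SE 0.06). Its mean over all arrays lay at the 15.8th percentile of probe sets, where signal close to background limits what a difference can show. Across the 20 arrays of this pair the values of the 2 Eri2 probe sets had a Pearson correlation of -0.06.

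Eri2 1394458_at behaved differently in AA and ANA, where its values formed 2 sets with nothing between 5.06 and 6.12. The low set held AA 1, 3, 5, 7, 9, 11, 13 and 19, between 4.56 and 5.06, and also ANA 16, ANA 18 and ANA 20, at 4.73, 4.42 and 4.62. The high set held ANA 2, 4, 6, 8, 10, 12 and 14, between 6.12 and 6.70, and also AA 15 and AA 17, at 6.54 and 6.74. All 5 arrays on the side of the other label were misfit arrays or, for ANA 20, an array nearer another line pair. As labelled the difference was -0.66 (SE 0.34), and without misfit arrays and arrays nearer another line pair it was -1.53 (SE 0.10). The low set lies where signal is close to background, so no fold is given. The other Eri2 probe set, 1381252_at, gave -0.04 (SE 0.12) as labelled and -0.12 (SE 0.11) with the same arrays left out.

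Wdr37 had the largest difference among the 8 probe sets. Probe set 1390784_at had a lowest value of 8.59, a median of 9.12 and a highest of 11.36 in AA, against 10.51, 11.20 and 11.44 in ANA. The AA arrays fell into a low set of 6, AA 1, 3, 5, 7, 9 and 11 at 8.59 to 9.14, and 4 higher arrays, AA 13, AA 15, AA 19 and AA 17 at 10.40, 10.93, 11.18 and 11.36. Of these 4, AA 15, AA 17 and AA 19 were misfit arrays and AA 13 was not. The lowest ANA array was the misfit array ANA 16 at 10.51, which lay near AA 13 and above the low set.

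The Wdr37 difference between AA and ANA was -1.41 (SE 0.32), a level 2.66-fold lower in AA. It was -1.57 (SE 0.33) without the arrays nearer another line pair, -2.10 (SE 0.18) without the misfit arrays, and -2.10 (SE 0.20) without both, and without the misfit arrays the lines did not overlap. In none of the 4 other pairs did 1390784_at fall below 10.84 in any array. The second Wdr37 probe set, 1380131_at, showed no such split: it ran from 9.82 to 10.03 in AA and from 9.79 to 10.27 in ANA, with a difference of -0.04 (SE 0.06; 95% interval -0.16 to 0.08). The 2 probe sets therefore disagree in this pair, and the 95% interval of the first ran from -2.07 to -0.75. Their correlation was 0.14 over the 20 AA and ANA arrays, 0.08 over the 17 sP and sNP arrays and 0.40 over the 20 P and NP arrays. Over the 19 HAD1 and LAD1 arrays it was 0.65, and over the 20 HAD2 and LAD2 arrays 0.74. A low correlation was thus not particular to AA and ANA.

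Nepn was lower in the preferring line in 2 pairs. Probe set 1385115_at had a lowest value of 4.25, a median of 4.43 and a highest of 5.41 in AA, against 4.57, 5.19 and 5.85 in ANA. The highest AA arrays were AA 17 and AA 15 at 5.41 and 5.02, and the lowest ANA array was ANA 16 at 4.57, all misfit arrays. The difference was -0.66 (SE 0.15) as labelled and -0.94 (SE 0.12) without the misfit arrays, where the lines did not overlap. Leaving out the arrays nearer another line pair gave -0.60 (SE 0.16), and leaving out these and the misfit arrays gave -0.86 (SE 0.10).

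In sP and sNP, Nepn showed a split of the same kind. The lowest, median and highest values were 4.54, 4.76 and 5.70 in sP, against 4.67, 5.48 and 5.85 in sNP. The 2 highest sP arrays were sP 9 and sP 2 at 5.70 and 5.31, and the 2 lowest sNP arrays were sNP 8 and sNP 9 at 4.67 and 4.99. All 4 misfit arrays of this pair lay beyond the midpoint on the other line's side. The difference was -0.49 (SE 0.18) as labelled, -0.59 (SE 0.19) without sP 2 and sNP 2, and -0.86 (SE 0.11) without the misfit arrays, where the lines did not overlap. It was -0.31 (SE 0.22) with the GAPDH 3′ to 5′ ratio as a covariate. In P and NP the values stayed between 4.07 and 4.49, with a difference of 0.03 (SE 0.05). The mean of Nepn lay at the 4.0th percentile of probe sets, so these are small signals near the bottom of the scale.

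E4f1 was higher in sP than in sNP, and it was the only one of the 8 probe sets whose lines did not overlap as labelled in any pair. Probe set 1396795_at had a lowest value of 4.47, a median of 4.53 and a highest of 4.61 in sP, against 4.28, 4.35 and 4.44 in sNP. The gap between the lowest sP and the highest sNP array, sNP 8, was small beside the differences of the other members. The difference was 0.18 (SE 0.03), 0.17 (SE 0.04) without the misfit arrays and 0.18 (SE 0.03) without sP 2 and sNP 2. In E4f1, sP 2 and sP 9 had 4.59 and 4.58, among the highest of the sP arrays, and 0 of 4 misfit arrays lay on the other line's side. The nearly identical arrays sP 2 and sNP 2 differed in E4f1, with 4.59 and 4.36. Because E4f1 was picked by its p in this pair as labelled, values that follow the labels are favoured by that choice. Nothing is read from them. The mean of E4f1 lay at the 3.67th percentile of probe sets.

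Pnpla1 was also higher on average in sP than in sNP. Probe set 1380830_at had a lowest value of 7.09, a median of 7.34 and a highest of 7.50 in sP, against 6.91, 7.02 and 7.21 in sNP. The lines overlapped: the lowest sP arrays, sP 2 at 7.09, sP 6 at 7.19 and sP 9 at 7.19, lay below the highest sNP arrays, sNP 3 and sNP 8 at 7.21. The difference was 0.25 (SE 0.06) as labelled, 0.32 (SE 0.07) without the misfit arrays and 0.26 (SE 0.07) without sP 2 and sNP 2. Pnpla1 had its widest spread in AA and ANA, from 6.90 to 8.22 in AA and from 6.75 to 8.11 in ANA, with a difference of 0.13 (SE 0.19). In P and NP it was -0.17 (SE 0.14), with NP 5 the highest array at 8.82.

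**Figure D2:**
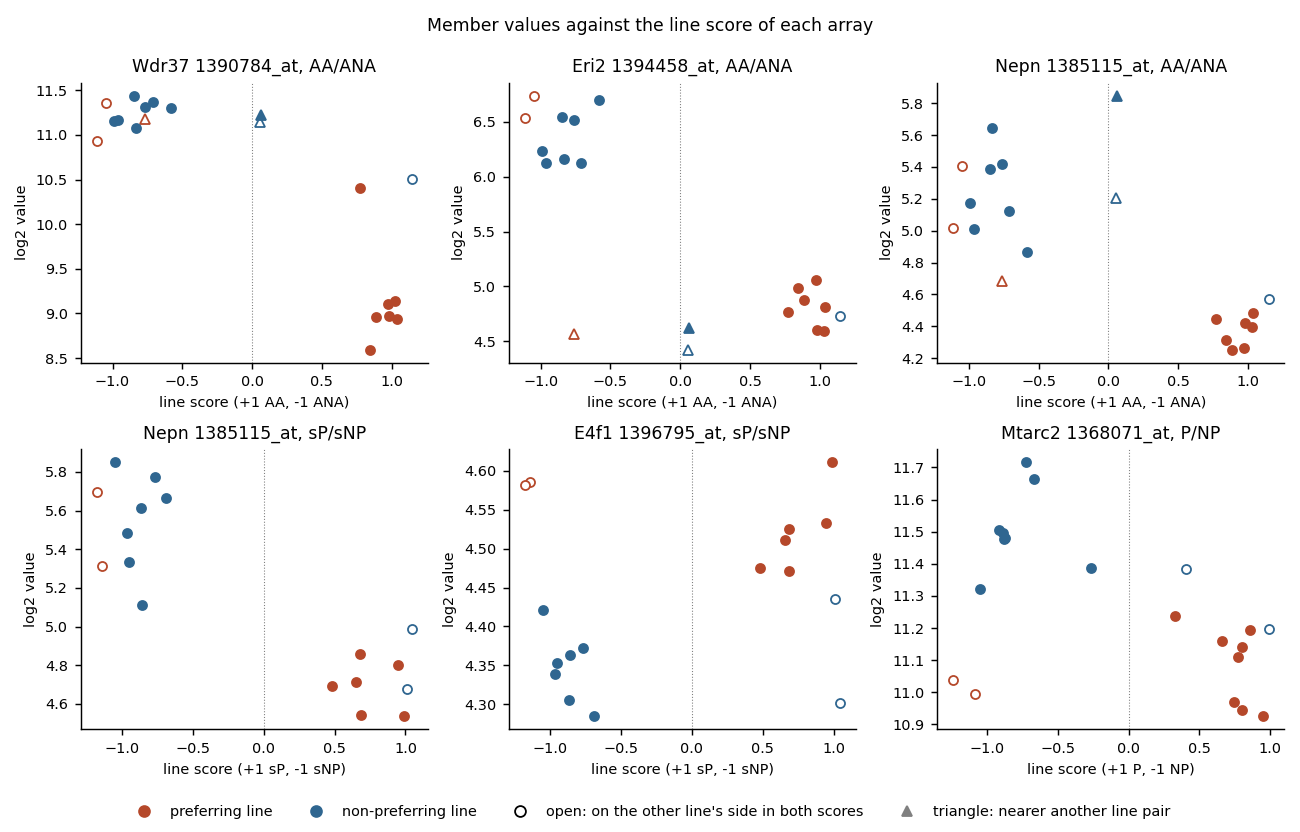
Log2 value of a probe set (vertical axis) against the mean of both line scores of the same array (horizontal axis, +1 preferring line and -1 its partner), for 6 combinations of probe set and line pair. Nepn in sP and sNP is lower at higher scores, its 4 misfit arrays (open) included. E4f1 in the same pair keeps its sP arrays above its sNP arrays whatever their score, which its choice by p in this pair as labelled favours.

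Over the 3 picking pairs, 0% of all probe sets passed an adjusted p of 0.05 in P/NP, 0% in AA/ANA and 0% in sP/sNP. As labelled, lines did not overlap for 0% of probe sets in P/NP, 0% in AA/ANA and 0.00966% in sP/sNP, the last being 3 probe sets with E4f1 among them. Without misfit arrays the lines did not overlap for 0.731% of probe sets in P/NP, 0.931% in AA/ANA and 1.64% in sP/sNP. Among the 8 probe sets these were Mtarc2 and Eri2 1381252_at in P/NP, Mtarc2, Wdr37 1390784_at and Nepn in AA/ANA, and Nepn and E4f1 in sP/sNP. Since the contrasts chose the genes, nothing is read from these counts.

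Markers of other cells moved with some of these contrasts, and their part in the results was not tested. In P/NP, 7 of 7 measured choroid plexus markers had positive differences, with a median of 0.54 beside 0.006 over all genes. The mean level of these 7 markers ranged from 6.03 to 10.89 over the P arrays, against 6.02 to 6.57 over the NP arrays, and Kl and Folr1 were the dimmest of them. One array, P 5, held the 10.89. Without P 5, 4 of the 7 were positive with a median of 0.006. In the same pair 0 of 9 striatal neuron markers were positive (median -0.16, and -0.29 without P 2), with mean levels of 9.95 to 11.60 in P and 9.81 to 11.55 in NP. Of the oligodendrocyte markers 1 of 9 was positive in P/NP, with mean levels of 10.93 to 12.54 in P and 11.44 to 12.73 in NP, and 8 of 9 were positive without P 9. Of the markers of endothelial cells and pericytes 1 of 8 was positive there (median -0.07), at 9.06 to 9.59 in P and 9.21 to 9.55 in NP.

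In AA/ANA, 0 of 9 striatal neuron markers were positive (median -0.23, and -0.12 without AA 1), with mean levels of 9.38 to 11.01 in AA and 9.96 to 10.99 in ANA, and 0 of 9 oligodendrocyte markers were positive (median -0.17), with mean levels of 10.87 to 12.43 in AA and 11.51 to 12.39 in ANA. Without AA 3, 3 of these 9 were positive, with a median of -0.05. In sP/sNP, 9 of 9 striatal markers were positive (median 0.29), at 10.17 to 11.49 in sP and 10.17 to 11.52 in sNP, and so were 8 of 8 markers of endothelial cells and pericytes (median 0.12), at 9.07 to 9.46 in sP and 8.85 to 9.45 in sNP. Without sNP 3, 7 of these 8 were positive, with a median of 0.07. No marker passed the limma test in these 3 pairs, where 0 probe sets passed at all. Of the 70 markers, 2, 1 and 2 had an unadjusted p under 0.05 in P/NP, AA/ANA and sP/sNP. Of all 31042 probe sets, 1523, 1528 and 1341 did. Of 13 neuronal markers fitting the central amygdala, 12 lay above the median probe set, and the receptor gene Calcrl was the exception. The counts were 9 of 9 for striatal, 8 of 8 for astrocyte, 8 of 9 for oligodendrocyte and 8 of 10 for microglial markers. They were 5 of 8 for endothelial cells and pericytes, 2 of 6 for basolateral and cortical excitatory neurons and 0 of 7 for choroid plexus. These counts therefore do not set the central amygdala apart from the striatum.

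The HAD and LAD pairs were not used to choose the genes, so differences there were tested with limma over all 31042 probe sets. None of the 8 probe sets passed an adjusted p of 0.05 in HAD1/LAD1, where 0.963% of all probe sets passed, and 1 of 8 had an unadjusted p under 0.05, beside 3426 of all probe sets. None of the 8 passed in HAD2/LAD2, where 4.09% of all probe sets passed, and again 1 of 8 had an unadjusted p under 0.05, beside 5079 of all. The lines overlapped for all 8 probe sets in both pairs, while 0.0193% of probe sets did not overlap in HAD1/LAD1 and 0.86% in HAD2/LAD2. The 95% interval for Mtarc2 ran from -0.16 to 0.14 in HAD1/LAD1 and from -0.17 to 0.11 in HAD2/LAD2. For Eri2 1381252_at the intervals were -0.22 to 0.16 and -0.09 to 0.25, and for Nepn they were -0.16 to 0.01 and -0.09 to 0.07.

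Eri2 1394458_at came nearest to the threshold. Its lowest, median and highest values were 5.40, 6.18 and 7.13 in HAD2, against 5.36, 5.57 and 5.74 in LAD2. The 7 highest HAD2 arrays, from HAD2 9 at 5.85 upward, lay above every LAD2 array, and HAD2 3, HAD2 5 and HAD2 6 lay within the LAD2 range. The difference was 0.52 (SE 0.16, limma adjusted p = 0.0805), opposite in sign to the -0.66 of the same probe set in AA/ANA. It passed once HAD2 3, HAD2 5 or HAD2 6 was left out (0.59, 0.60 and 0.60, with limma adjusted p = 0.0425, 0.0326 and 0.0309). These are the HAD2 arrays within the LAD2 range, so leaving 1 of them out raises the difference by construction. With any 1 array left out it ran from 0.41 to 0.60, with limma adjusted p from 0.0309 to 0.139. The mean of this probe set lay at the 15.8th percentile of probe sets. In HAD1/LAD1 the difference was 0.08 (SE 0.15), with values from 6.45 to 7.55 in HAD1 and from 6.32 to 7.54 in LAD1.

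Pnpla1 was the probe set under an unadjusted p of 0.05 in HAD1/LAD1. It had a lowest value of 7.78, a median of 8.04 and a highest of 8.31 in HAD1, against 7.37, 7.86 and 8.25 in LAD1, with the highest LAD1 value in the misfit array LAD1 37. The difference was 0.21 (SE 0.10, 95% interval 0.01 to 0.41, limma adjusted p = 0.417). It was 0.16 (SE 0.09, limma adjusted p = 0.579) without LAD1 36, the array with conflicting labels, and 0.09 (SE 0.11, limma adjusted p = 0.845) with LAD1 36 counted as HAD1. In HAD2/LAD2 it was 0.11 (SE 0.09, 95% interval -0.09 to 0.30, limma adjusted p = 0.578). E4f1 gave 0.03 (SE 0.05) in HAD1/LAD1 and 0.03 (SE 0.04) in HAD2/LAD2, with 95% intervals of -0.07 to 0.12 and -0.05 to 0.11.

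Both Wdr37 probe sets were higher in HAD1 than in LAD1 and lower in HAD2 than in LAD2 on average, with no test passed. For 1390784_at the lowest, median and highest values were 11.22, 11.70 and 12.21 in HAD1, against 10.92, 11.47 and 11.76 in LAD1, and 10.98, 11.33 and 11.51 in HAD2, against 11.22, 11.47 and 11.76 in LAD2. The differences were 0.24 (SE 0.12, limma adjusted p = 0.460) and -0.14 (SE 0.08, limma adjusted p = 0.382). For 1380131_at they were 0.15 (SE 0.12) and -0.21 (SE 0.13). Whether the differences of HAD1/LAD1 and HAD2/LAD2 themselves differ was tested in a fit of all 10 lines: 0 of 8 probe sets passed, where 4.27% of all probe sets did, and 1 of 8 had an unadjusted p under 0.05 beside 5491 of all. That 1 was Wdr37 1380131_at, with 0.36 (SE 0.14, limma adjusted p = 0.126). Without LAD1 40 it was 0.42 and without HAD2 7 it was 0.43, with limma adjusted p = 0.0443 and 0.0300. With any 1 array left out the limma adjusted p ran from 0.0300 to 0.262. Without misfit arrays it was 0.157, and with LAD1 36 counted as HAD1 it was 0.252. Beside these pairs, the microglial markers C1qc (-0.48) and Cx3cr1 (-0.40) and the vessel marker Abcb1a (-0.67) were lower in HAD1 than in LAD1, each past the test. In HAD2, P2ry12 (0.64), Gjb6 (0.28), Abcb1a (0.66) and Rgs5 (0.42) were higher than in LAD2, each past the test. Cx3cr1 (-0.30) and Tek (-0.28) were lower there, each past the test. Of all 10 microglial markers, 0 were positive in HAD1/LAD1 (median -0.19) and 2 in HAD2/LAD2 (median -0.18). Of the 8 markers of endothelial cells and pericytes, 1 was positive in HAD1/LAD1 (median -0.04) and 4 in HAD2/LAD2 (median -0.003). Of the 8 astrocyte markers, Gjb6 among them, 6 were positive in HAD2/LAD2 (median 0.04). The microglial mean level ranged from 8.84 to 9.25 in HAD1 and from 9.07 to 9.50 in LAD1. It ranged from 8.72 to 9.11 in HAD2 and from 8.78 to 9.69 in LAD2, with the 9.69 in LAD2 14. Without LAD2 14, LAD2 reached 9.15, and 3 of the 10 microglial markers were positive (median -0.10). Of 7 choroid plexus markers, 0 were positive in HAD2/LAD2 (median -0.12), and 0 without LAD2 12. Of 13 central amygdala markers, 2 were positive there (median -0.14), and 4 without HAD2 6. The part of these markers in the results was not tested.

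**Figure D3:**
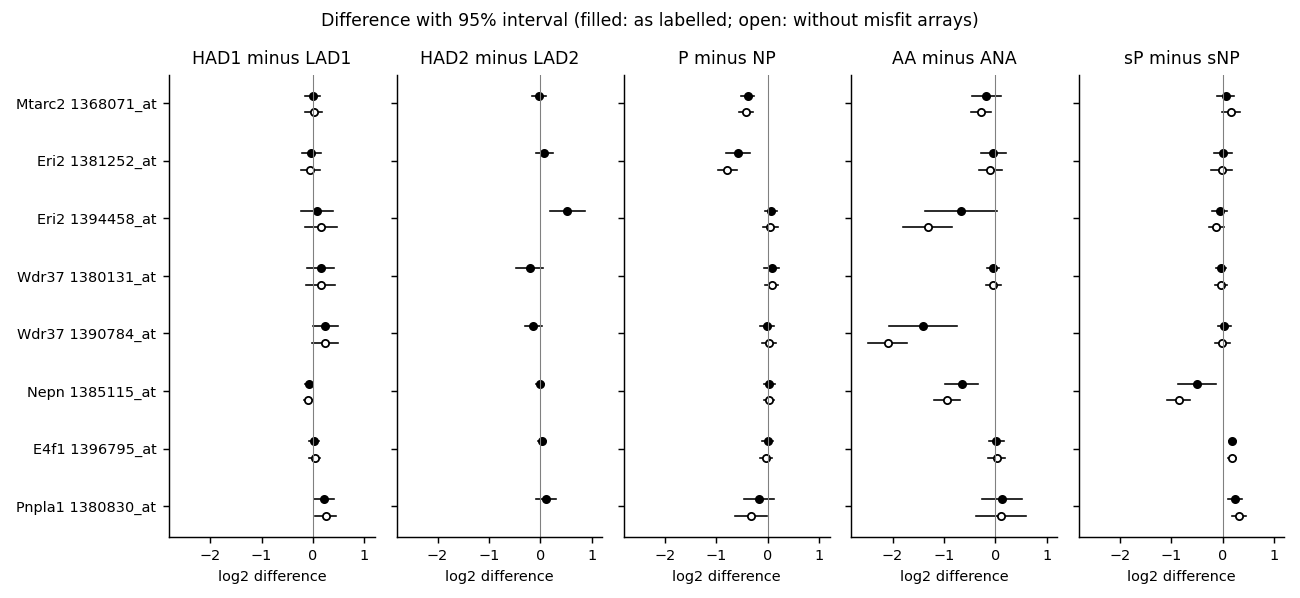
Difference between the preferring line and its partner (log2, horizontal axis) with its 95% interval for each of the 8 probe sets (rows) in the 5 line pairs (panels). Filled points use arrays as labelled and open points leave out misfit arrays, of which HAD2 and LAD2 have none; the farthest point from 0 is Wdr37 1390784_at in AA minus ANA, at -1.41 and -2.10.

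The genes whose values followed each member most closely were found by Pearson correlation over all 96 arrays after the mean of each line pair was taken off. These correlations describe arrays that share lines, RNA quality and misfit arrays. For Mtarc2 they were Pla2g10, a secreted phospholipase (0.72), Sft2d3 (0.71) and Ccng2, a cyclin-like protein (0.69). Within the 20 P and NP arrays, Pla2g10 kept a correlation of 0.72 and Sft2d3 one of 0.23. Eri2 1381252_at was followed by Fntb, a farnesyltransferase subunit (0.53), Bbs12, a chaperonin-like gene of Bardet-Biedl syndrome (0.51), and Zfp707 (0.50). All 3 were lower in P than in NP on average, Fntb by -0.41 (SE 0.10).

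Wdr37 1390784_at was followed by Hnmt, the enzyme that methylates histamine (0.67), Lyplal1 (0.64) and Mcm7, a subunit of the replicative helicase (0.63). In AA and ANA alone these correlations were 0.87, 0.80 and 0.87, and the Hnmt difference was -0.93 (SE 0.26). Nepn was followed by Rexo4, an exonuclease of the same broad class as Eri2 (0.59), by Wdr37 itself (0.58) and by Ooep, an oocyte protein (0.57). Within AA and ANA the Nepn correlation was 0.86 with Rexo4, 0.82 with Wdr37 and 0.40 with Ooep. E4f1 had looser likenesses, with Rasgrf2 (0.48), Map2k6 (0.45) and Jph1 (0.44), which were 0.35, 0.06 and 0.27 over the 17 sP and sNP arrays. Pnpla1 was followed by its chromosome neighbour Slc26a8, an anion transporter of the testis (0.49), by the glutamate transporter Slc1a2 (0.40) and by Adgrd1 (0.39). Slc26a8 kept 0.65 over the sP and sNP arrays, where Adgrd1 had 0.05.

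The members lie on chromosomes 13 (Mtarc2), 1 (Eri2), 17 (Wdr37), 20 (Nepn and Pnpla1) and 10 (E4f1), and the 5 measured genes on either side of each were described in the picking pair. None of these 10 neighbours passed the test for any member, in pairs where 0 probe sets passed at all. Next to Mtarc2, its paralogue Mtarc1 was lower in P than in NP by a like amount, -0.39 (SE 0.11), with rank 169 by p and -0.43 without misfit arrays. The other named neighbour, the kinase gene Mark1, had 0.13 (SE 0.10). Because Mtarc1 and Mtarc2 are related in sequence, how far their probes share signal was not tested.

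Around Eri2 the neighbours went both ways in P/NP. Ldaf1, a lipid droplet assembly factor, was at 0.51 (SE 0.18) and Acsm5, a mitochondrial acyl-CoA synthetase, at 0.33 (SE 0.30), while the 95th percentile of absolute differences over all genes was 0.21. Lyrm1, named after its values were seen, went the way of Eri2 at -0.32 (SE 0.10), and -0.41 without misfit arrays, with rank 192 by p, the smallest of these 10 neighbours. Ldaf1 had rank 380 and Acsm5 rank 8177. The neighbours of Wdr37 in AA/ANA ran from -0.08 (Dip2c, SE 0.07) to 0.08 (the transcription factor Klf6, SE 0.08). Wdr37 1390784_at, at -1.41, lay outside that range, and the other Wdr37 probe set, 1380131_at, lay within it at -0.04. Wdr37 was picked for a small p in this pair and the neighbours were not. The neighbours of Nepn ran from -0.19 (Asf1a, a histone chaperone, SE 0.09) to 0.25 (Pln, the regulator of the calcium pump SERCA, SE 0.22). Those of E4f1 had Tedc2 at -0.14 (SE 0.10) and the cyclin gene Ccnf at -0.08 (SE 0.09), and 8 of 10 were negative while E4f1 was positive. Those of Pnpla1 had Slc26a8 at 0.18 (SE 0.11) and Cdkn1a, the inhibitor of cyclin-dependent kinases, at -0.16 (SE 0.12). Slc26a8 was positive in 4 of the 5 pairs, between 0.16 and 0.27, and at -0.01 in P/NP.

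**Figure D4:**
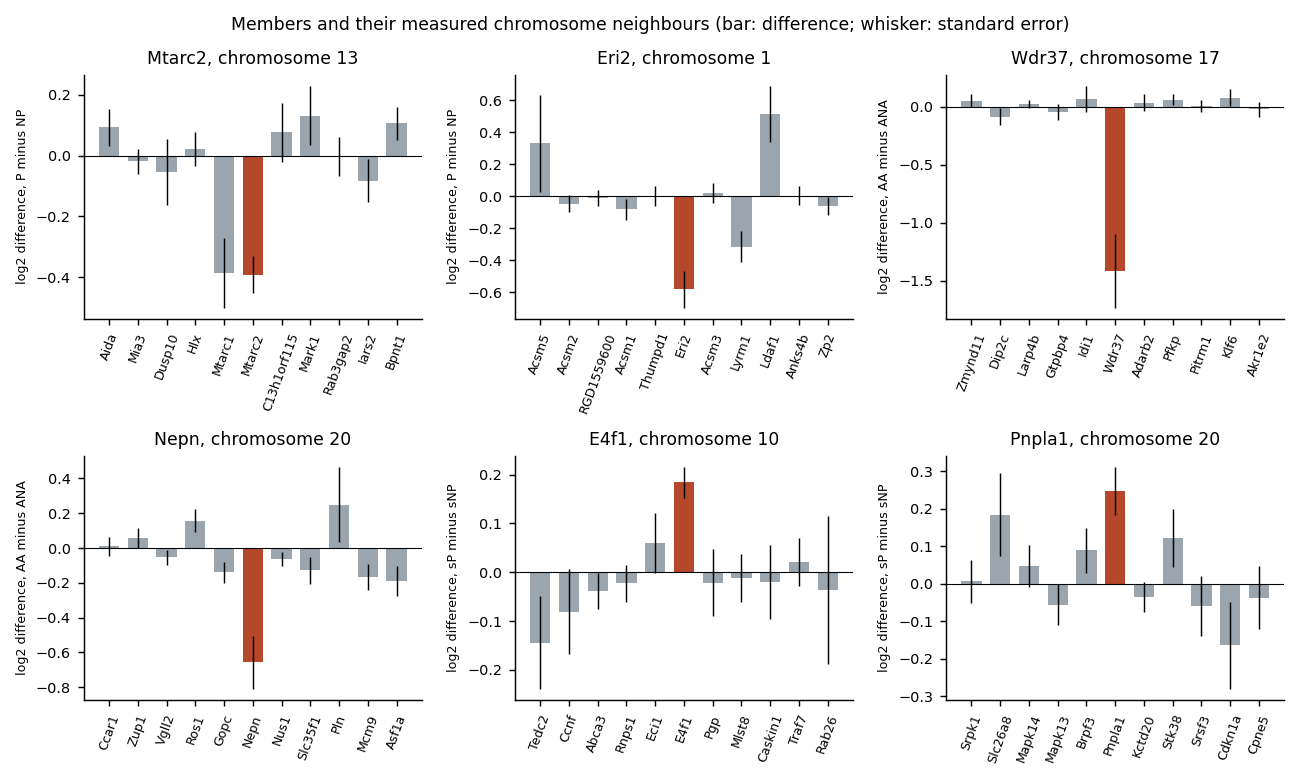
Log2 difference in the picking pair (vertical axis, preferring line minus partner; whiskers are standard errors) for each member (red) and the 5 measured genes on either side of it in chromosome order (grey), 1 panel per member. Mtarc1 and Mtarc2 are both near -0.39, and Wdr37 at -1.41 has neighbours within -0.08 and 0.08.

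Genes of the pathways around the members were followed through 6 lists, of which 83 of 97 genes were measured. Of all 14217 genes, 31 had a positive and 66 a negative difference past the test in HAD1/LAD1, against 305 and 228 in HAD2/LAD2. No list gene passed the limma test in HAD1/LAD1 (1 to 3 passed under some alternatives), and 3 passed in HAD2/LAD2. In HAD1/LAD1, 13 of 83 list genes had an unadjusted p under 0.05, beside 3426 of all 31042 probe sets. The list for Eri2 held 17 measured genes of 3′-5′ exonucleases and the exosome, not all of the ERI family. In it Isg20l2, which works in ribosomal RNA processing, was higher in HAD2 than in LAD2 by 0.53 (SE 0.08, limma adjusted p = 2.21e-04). Rexo4 of the same list was lower by -0.96 (SE 0.08, limma adjusted p = 3.33e-08), with means of 8.12 in HAD2 and 9.08 in LAD2. The remaining 15 did not pass, and the median difference of the list was 0.003, beside -0.004 over all genes. Rexo4 was also at -0.65 in AA/ANA and -0.49 in sP/sNP, and at 0.29 in HAD1/LAD1 and 0.13 in P/NP.

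The list for Nepn held 21 measured small leucine-rich proteoglycan and TGF-beta genes. In it Smad7, an inhibitor of TGF-beta signalling, was lower in HAD2 than in LAD2 by -0.32 (SE 0.09, limma adjusted p = 0.0440). The median of the list was 0.04. No gene passed in either tested pair among 10 molybdenum cofactor and mARC partner genes (medians 0.002 in HAD1/LAD1 and -0.03 in HAD2/LAD2), 9 PACS and calcium handling genes (0.03 and -0.05), 14 pyruvate dehydrogenase and E4F1-linked genes (-0.005 and 0.002) and 12 patatin-like lipase and lipolysis genes (-0.007 and 0.03). In the picking pair of the matching member the list medians were also small, at -0.005 for the mARC partners and -0.02 for the exonucleases in P/NP, 0.02 for the PACS genes and -0.03 for the proteoglycan genes in AA/ANA, and 0.010 for the pyruvate dehydrogenase genes and -0.01 for the lipases in sP/sNP.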

How the data were processed

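The deposited table holds log2 values of 31099 probe sets in 96 arrays, which the authors made with RMA, per the submitters' processing notes. Biotin-labelled cRNA came from 25 ng of RNA by the Affymetrix 2-cycle protocol, per the labels' protocols. The sources used here do not state the RMA version or whether all pairs were normalized jointly. The 57 control probe sets were left out; symbols and chromosomes come from the platform annotation (20826 probe sets with 1 symbol, 436 with several, which leaves out 1 shared by E4f1 and another gene, and 9780 with none) matched to RefSeq names of GRCr8. Sequence variants that a line carries under a probe can alter the signal.

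Each pair was fitted alone with limma 3.58.1 in R 4.3.3 (intensity trend, Benjamini-Hochberg over 31042 probe sets, threshold 0.05), checked on simulated data, where 77 to 91 of 100 probe sets changed by 0.5 passed, over the 5 pairs. P-values measure the spread between arrays. A gene's list value is its brightest probe set. The named genes are all member probe sets, the 3 most correlated genes, the 2 neighbours with the largest differences, and at most 2 list genes per direction past the test, skipping symbols that are only locus numbers. Members and lists were chosen with earlier results of these data known. Leaving out arrays nearer another line pair, the GAPDH covariate in the HAD/LAD pairs, the list genes' alternatives and marker lists without 1 array were chosen after seeing the data. Replicate numbers did not pair arrays: same-number correlations ran from -0.11 to 0.50 in P/NP and from -0.18 to 0.77 in sP/sNP. Array number limits precision, and 0 value columns belonged to no sample.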

Additional observations from a re-analysis of the deposited data

Results flagged for a closer look

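Within a line, 3 of the 80 combinations of probe set and line had 1 array apart from the rest by a gap that chance gives in about 1 in 20. That is no more than this rate gives over 80 combinations, so nothing is read from the count. In AA, Mtarc2 in AA 19 was at 11.07 while the other AA arrays ran from 9.96 to 10.38, and the gap to the nearest array was 0.616 of the whole range. In ANA, Wdr37 1390784_at in ANA 16 was at 10.51 while the others ran from 11.07 to 11.44, a gap of 0.607 of the range. In P, Wdr37 1390784_at in P 1 was at 10.84 while the others ran from 11.08 to 11.34, a gap of 0.474 of the range. All 3 were misfit arrays, and AA 19 was also nearer another line pair.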

How the results depend on the processing

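None of the 8 probe sets passed in HAD1/LAD1 under any alternative run. In HAD2/LAD2, 1 passed (Eri2 1394458_at) after a further quantile normalization (0.56, limma adjusted p = 0.0481) and with the GAPDH ratio as covariate (0.56, limma adjusted p = 0.0351), and 0 to 1 with 1 array left out. Over all its alternatives the adjusted p of this probe set ran from 0.0309 to 0.154. For the difference between both HAD/LAD pairs, 1 passed (Wdr37 1380131_at) with array weights (0.48, limma adjusted p = 0.00388). With 1 array left out 0 to 1 passed. The limma adjusted p of Wdr37 1380131_at ran from 0.00388 to 0.262 over all its alternatives. Of list genes, 3 passed in HAD2/LAD2, against 6 with array weights. In HAD1/LAD1 0 passed, against 2 in the fit of all lines, 1 with array weights, 3 without misfit arrays and 0 to 1 with 1 array left out. In P/NP 0 passed, against 1 in the fit of all lines and 1 without misfit arrays. In AA/ANA 0 passed, against 1 in the fit of all lines, 1 with array weights, 2 without misfit arrays, 5 without these and the arrays nearer another line pair, and 0 to 1 with 1 array left out. In sP/sNP 0 passed, against 2 without misfit arrays. The cause was not tested.

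In the picking pairs the probe set of each gene with the smallest p there kept its sign under every alternative run. The ranges were -0.42 to -0.36 for Mtarc2, -0.79 to -0.54 for Eri2 1381252_at and -2.10 to -1.28 for Wdr37 1390784_at. They were -0.94 to -0.59 for Nepn, 0.17 to 0.20 for E4f1 and 0.21 to 0.32 for Pnpla1. These contrasts chose the genes, so nothing is read from the held signs. The other probe sets ran from 0.020 to 0.082 (Eri2 1394458_at in P/NP) and from -0.060 to 0.0071 (Wdr37 1380131_at in AA/ANA). In the tested pairs signs turned for differences near 0 that never passed. Mtarc2 in HAD1/LAD1 (-0.0076) became 0.012 without misfit arrays by either score rule, 0.021 with the GAPDH covariate, 0.0013 without LAD1 36 and 0.010 with LAD1 36 as HAD1, and ran from -0.039 to 0.016 with 1 array left out. Eri2 1394458_at in HAD1/LAD1 (0.081) became -0.0098 with LAD1 36 as HAD1. Nepn in HAD2/LAD2 (-0.010) became 0.0087 after quantile normalization and 0.0047 with the GAPDH covariate, and ran from -0.031 to 0.0043 with 1 array left out. E4f1 in HAD1/LAD1 (0.026) became -0.00049 with array weights. With 1 array left out, Mtarc2 in HAD2/LAD2 ran from -0.072 to 0.0016 and Eri2 1381252_at in HAD1/LAD1 from -0.073 to 0.010.

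With the replicate number as a block, Mtarc2 had -0.39 (SE 0.06) and Eri2 1381252_at -0.58 (SE 0.13) in P/NP. Every number occurs in both lines of P/NP, so the block cannot move these differences, only their SE. E4f1 and Pnpla1 had 0.19 and 0.27 in sP/sNP, and 0 list genes passed in either pair. Arrays correlated best with their own number in 2 of 10 pairs of P/NP and 1 of 8 of sP/sNP.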
